A study of Mus musculus with 9 samples.

Results

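The genes described here are 9 genes of astrocyte homeostatic function, Slc1a2, Slc1a3, Glul, Kcnj10, Aqp4, Gja1, Gjb6, Aldoc and Aldh1l1. They were chosen by their names and their known roles, with earlier results of these data known. Each was found by its Ensembl identifier among the 55704 genes of the table. All 9 had a mean of at least 0.1 FPKM (fragment numbers scaled by gene length and library size) and were among the 20207 genes tested. Bulk RNA-seq covered 9 libraries of NSCs (neural stem cells), 3 in each of 3 groups. The NSCs came from the SVZ, the neurogenic wall of the lateral ventricle, of C57BL/6 mice of 8-9 weeks, with cells of 2 female and 2 male mice pooled in an isolation. After at least 3 passages the cells were plated on poly-L-ornithine and laminin with bFGF and EGF, and bFGF/EGF-treated NSCs were collected 16-18 h later, on day 0. In bFGF/BMP4-treated NSCs BMP4 then replaced EGF, in BMP4-treated NSCs it replaced both factors, and both groups were collected on day 6, with each factor at 20 ng/ml. The labels call the cells of all groups neural stem cells. Both BMP4 groups were compared with the same bFGF/EGF libraries, taken 6 days earlier in culture, so medium and time in culture cannot be told apart in those 2 comparisons. The question of the study was whether NSCs given BMP4 with or without bFGF became quiescent NSCs or astrocytes.

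Astrocytes remove what neurons release. Glutamate enters the astrocyte through sodium-coupled transporters, is turned into glutamine by glutamine synthetase and is handed back to neurons, while potassium enters through inwardly rectifying channels and water through aquaporins that gather at the endfeet on vessels. Gap junctions join the astrocytes into a network through which ions and metabolites spread. NSCs of the SVZ share part of this equipment with astrocytes, which is why transcripts such as Slc1a3, Aldoc and Aldh1l1 are found in both cell types.

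Compared with bFGF/EGF-treated NSCs, 7 of the 9 genes were higher in each of the BMP4 groups, as were 12.7% of all genes tested, while Aldh1l1 was lower and Slc1a3 differed by less than 2-fold. The genes parted when bFGF was withheld. Aqp4, Gja1 and Aldoc were highest in BMP4-treated NSCs (6.01% of all genes were), Slc1a2 and Gjb6 were highest in bFGF/BMP4-treated NSCs (2.01%), and Aldh1l1 was lowest there (1.91%). Between the 2 BMP4 groups 6 of the 9 genes did not overlap, as 38.7% of all genes did not, and the levels of Glul, Kcnj10 and Slc1a3 overlapped. The groups were compared with limma on log2(FPKM + 0.1) in 1 fit of all genes, and a gene was called where its Benjamini-Hochberg adjusted p was 0.05 or less and its change 2-fold or more. Fold changes in FPKM given below are ratios of group means, and log2 fold changes are on the log2(FPKM + 0.1) scale. The libraries held 15892854 to 17419822 fragments on genes. On the log2 scale libraries of the same group correlated at 0.95 to 0.964 across genes, against 0.81 to 0.915 between groups. The labels speak of biological replicas but do not say whether these were separate isolations, so the p-values measure the spread between these libraries, which may be partly technical.

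The sequences just before the start sites of 5 of the genes are shown because these genes had the 3 contrasting patterns. They were taken from RefSeq promoters of the build GRCm38.p6, placed on GRCm39 by an exact and unique match, and cover the 250 bases before the start, 5′ to 3′ on the strand of the gene. Capitals mark TTGGC, one arm of the nuclear factor I site, or its complement GCCAA. Slc1a2 (chr2:102536533-102536782, plus strand) and Gjb6 (chr14:57371069-57371318, minus strand) were highest with bFGF and BMP4. Gja1 (chr10:56253146-56253395, plus strand) and Aldoc (chr11:78213649-78213898, plus strand, the first of its 2 listed starts) were highest with BMP4 alone. Aldh1l1 (chr6:90527525-90527774, plus strand) was highest with bFGF and EGF.
Slc1a2: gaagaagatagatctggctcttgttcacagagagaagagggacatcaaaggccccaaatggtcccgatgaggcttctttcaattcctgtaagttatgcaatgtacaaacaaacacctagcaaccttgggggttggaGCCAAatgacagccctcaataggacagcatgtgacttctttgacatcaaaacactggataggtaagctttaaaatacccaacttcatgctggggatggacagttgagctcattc
Gjb6: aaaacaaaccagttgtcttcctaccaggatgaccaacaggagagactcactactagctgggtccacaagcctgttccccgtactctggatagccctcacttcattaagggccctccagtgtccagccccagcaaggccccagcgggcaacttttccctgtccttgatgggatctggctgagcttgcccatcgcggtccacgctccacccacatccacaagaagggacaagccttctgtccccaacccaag
Gja1: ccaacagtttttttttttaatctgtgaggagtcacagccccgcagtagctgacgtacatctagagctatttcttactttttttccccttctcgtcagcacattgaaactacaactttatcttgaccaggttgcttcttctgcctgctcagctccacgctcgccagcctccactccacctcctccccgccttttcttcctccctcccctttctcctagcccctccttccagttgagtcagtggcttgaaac
Aldoc: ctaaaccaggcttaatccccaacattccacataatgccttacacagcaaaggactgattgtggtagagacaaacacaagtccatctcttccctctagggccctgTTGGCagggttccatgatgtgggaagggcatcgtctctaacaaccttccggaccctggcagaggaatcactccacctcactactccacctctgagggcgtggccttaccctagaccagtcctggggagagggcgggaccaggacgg
Aldh1l1: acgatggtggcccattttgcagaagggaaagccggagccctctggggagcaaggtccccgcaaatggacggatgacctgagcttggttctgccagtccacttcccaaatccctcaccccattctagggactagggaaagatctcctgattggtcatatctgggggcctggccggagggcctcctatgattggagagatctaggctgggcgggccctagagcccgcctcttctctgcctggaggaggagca
Promoters of 8 of the 9 genes, with 9 starts, were searched, and the promoter of Aqp4 was left out and not analysed here. TTGGC was found on either strand in 4 of the 9 starts (Slc1a2, Glul, Kcnj10 and the first start of Aldoc), against 41.5% of all 32851 promoters. The E-box CANNTG was in 6 of the 9, against 66.2% of all. TATAAA was in 1, that of Slc1a3, against 12.4%, and the SMAD element GGCGCC was in none, against 9.59%. In the sequences above TTGGC or its complement stands in Slc1a2 but not in Gjb6, and in Aldoc but not in Gja1. The RefSeq starts of Slc1a2 and Aldh1l1 lie 48209 and 64366 bases inside the GENCODE genes, which begin at upstream alternative exons, and the files do not say which start was used in these cells.

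Slc1a2 (chr2:102488574-102621129, plus strand) encodes GLT-1, the glutamate transporter that carries most uptake in the adult forebrain. The bFGF/EGF libraries 1 to 3 read 14.3, 10.1 and 13.5 FPKM. With bFGF and BMP4 the libraries read 194.7, 171.8 and 159.1 FPKM. BMP4 alone gave 67.2, 52.4 and 76.99 FPKM. No library of 1 group reached into the range of another, and the bFGF/BMP4 group stood highest. Slc1a2 was 13.9-fold higher in bFGF/BMP4-treated than in bFGF/EGF-treated NSCs (log2 fold change 3.79, SE 0.18, limma with Benjamini-Hochberg adjusted p = 2.24e-07) and 5.19-fold higher in BMP4-treated NSCs (2.36, adjusted p = 2.79e-06). Between the 2 BMP4 groups it was 2.67-fold lower without bFGF (log2 fold change -1.43, limma adjusted p = 0.000309).

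Slc1a3 (chr15:8663604-8741595, minus strand) encodes GLAST, the glutamate transporter of radial glia, NSCs and astrocytes. It read 71.8, 66.4 and 82.7 FPKM in the bFGF/EGF libraries, 118.3, 120.6 and 152.4 FPKM in the bFGF/BMP4 libraries and 122.6, 108.0 and 107.6 FPKM in the BMP4 libraries. Both BMP4 groups lay above the control without overlap, and they overlapped each other. The difference from the control was 1.77-fold with bFGF/BMP4 (log2 fold change 0.82, SE 0.14, limma adjusted p = 0.000846) and 1.53-fold with BMP4 (0.62, adjusted p = 0.00391), so both passed the p threshold and not the 2-fold threshold. BMP4 against bFGF/BMP4 gave -0.20 (limma adjusted p = 0.373). Among the 9 genes Slc1a3 thus had the smallest change in each of the 3 comparisons, and it was already among the 594 most abundant genes of bFGF/EGF-treated NSCs.

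The ratio of the 2 glutamate transporters differed between the groups. FPKM is per length, but the gene lengths that the authors used are not stated, and those that follow from the values are not the total exon lengths of GENCODE vM39. Slc1a3 was 5.01 to 6.57 times Slc1a2 in the bFGF/EGF libraries, with a mean log2 ratio of 2.55 ± 0.20 (SD, n = 3). In the bFGF/BMP4 libraries Slc1a2 was the more abundant of the pair in all 3, at 1.04 to 1.65 times Slc1a3 (log2 ratio of Slc1a3 to Slc1a2 -0.43 ± 0.34). In the BMP4 libraries the ratio was 1.40 to 2.06 (0.80 ± 0.29). With GENCODE lengths every ratio was 1.60-fold lower, at 3.12 to 4.10, 0.379 to 0.597 and 0.871 to 1.28, so the transporter that was ahead in the BMP4 libraries depended on the lengths. The differences between groups do not, since a length is the same in every library, and the ranges of the 3 groups did not overlap. The ratios are a description, with no test.

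Glul (chr1:153775690-153785469, plus strand) encodes glutamine synthetase, which makes glutamine from glutamate and ammonia. Its levels were 54.0, 57.3 and 43.6 FPKM in the bFGF/EGF libraries, 729.2, 452.8 and 383.4 FPKM in the bFGF/BMP4 libraries and 313.7, 489.6 and 445.8 FPKM in the BMP4 libraries. Every BMP4 and bFGF/BMP4 library was above every control library, while the 2 BMP4 groups overlapped. Glul was 10.1-fold higher with bFGF/BMP4 (log2 fold change 3.29, SE 0.26, limma adjusted p = 5.4e-06) and 8.06-fold higher with BMP4 (2.99, adjusted p = 6.43e-06). It ranked 37th of the genes tested by mean FPKM in bFGF/BMP4-treated NSCs and had a wide spread there, with a coefficient of variation of 35.1%. The difference between the 2 BMP4 groups was -0.30 on the log2 scale (limma adjusted p = 0.483).

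Kcnj10 (chr1:172168765-172201652, plus strand) encodes Kir4.1, the main potassium channel of astrocytes, which also holds their resting potential near the potassium equilibrium. The control libraries read 7.98, 9.72 and 6.67 FPKM, the bFGF/BMP4 libraries 80.8, 125.7 and 106.9 FPKM and the BMP4 libraries 134.8, 122.4 and 140.4 FPKM. As for Glul, the 2 BMP4 groups overlapped, here by 1 library, and neither overlapped the control. Kcnj10 rose 12.9-fold with bFGF/BMP4 (log2 fold change 3.66, SE 0.18, limma adjusted p = 3.17e-07) and 16.3-fold with BMP4 (4.03, adjusted p = 1.36e-07). BMP4 against bFGF/BMP4 gave 0.36 (limma adjusted p = 0.203). Kcnj16, whose product Kir5.1 joins Kir4.1 in mixed channels, went the other way and fell from 13.7 ± 1.37 FPKM (SD, n = 3) to 0.98 ± 0.30 with bFGF/BMP4 and 2.69 ± 0.25 with BMP4 (log2 fold change -3.71 and -2.30, limma adjusted p = 8.94e-07 and 1.26e-05).

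Aqp4 (chr18:15522451-15544039, minus strand), the water channel of the astrocyte endfoot, had the largest change of the 9 genes from bFGF/EGF in both BMP4 groups. In bFGF/EGF-treated NSCs it was barely detected, at 0.519, 0.680 and 0.381 FPKM, which rested on 55, 67 and 42 fragments. It was at 192.2, 239.1 and 205.0 FPKM in the bFGF/BMP4 libraries and at 829.6, 700.4 and 804.9 FPKM in the BMP4 libraries. The 3 groups formed 3 separate steps. The difference from the control was 403-fold with bFGF/BMP4 (log2 fold change 8.43, SE 0.17, limma adjusted p = 3.54e-09) and 1478-fold with BMP4 (10.3, adjusted p = 4.0e-10), the 6th and the 4th largest rise of the 20207 genes tested. Without bFGF it was a further 3.67-fold higher (1.88, limma adjusted p = 5.2e-05), and Aqp4 was then the 30th most abundant gene tested.

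**Figure D1:**
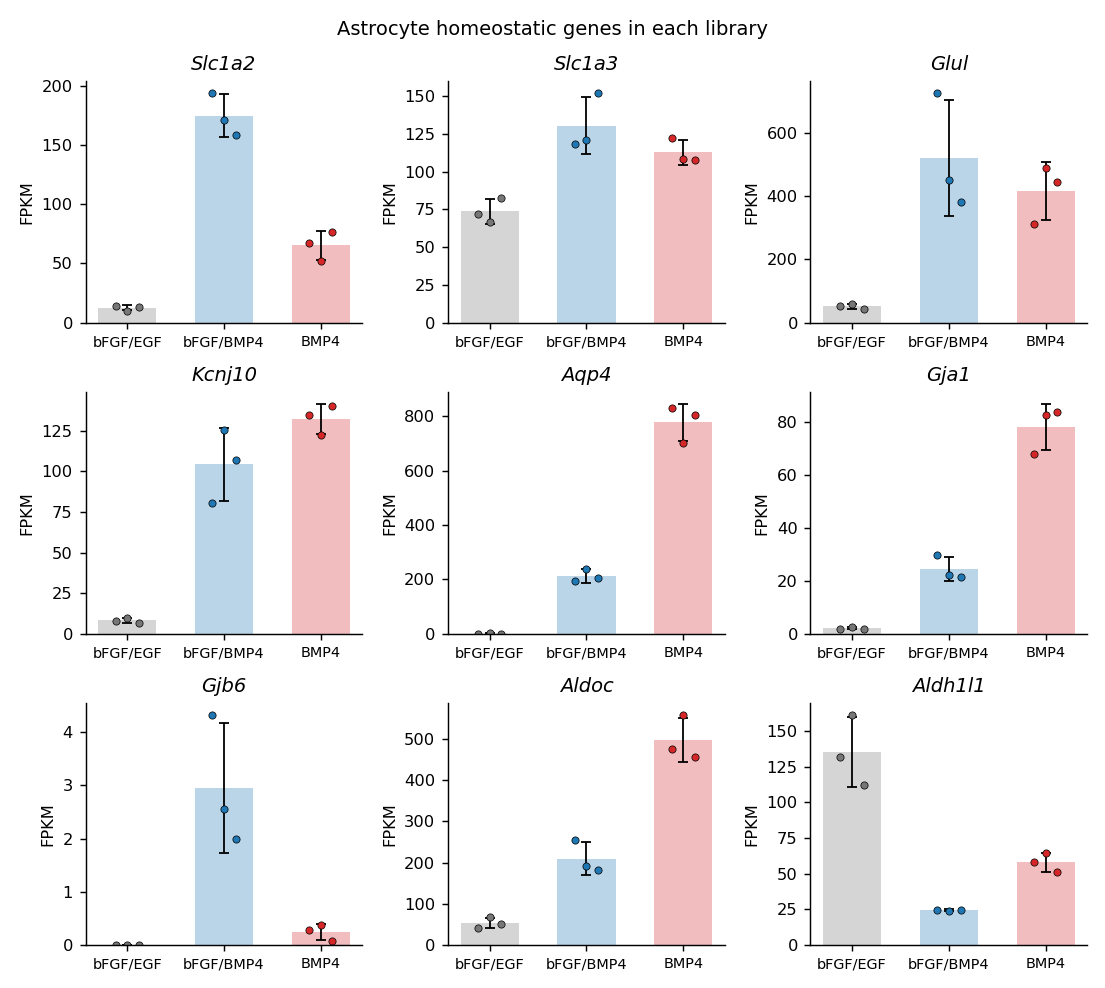
FPKM of each gene (linear axis from 0, its own scale in each panel) in the 9 libraries, with points for libraries, bars for group means and error bars for the SD of 3 libraries. Aqp4, Gja1 and Aldoc rise in steps to BMP4, Slc1a2 and Gjb6 peak in bFGF/BMP4, and Aldh1l1 is highest in bFGF/EGF.

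Gja1 (chr10:56253241-56278609, plus strand) encodes connexin 43 and Gjb6 (chr14:57360757-57371087, minus strand) connexin 30, the 2 main gap junction proteins of astrocytes. Control libraries had 1.70, 2.47 and 1.93 FPKM of Gja1, against 29.8, 22.3 and 21.3 FPKM in the bFGF/BMP4 libraries and 67.8, 82.7 and 83.6 FPKM in the BMP4 libraries. Like Aqp4, it rose in 2 steps without overlap. The first BMP4 group was 12.03-fold above the control (log2 fold change 3.52, SE 0.17, limma adjusted p = 3.06e-07), BMP4 alone was 38.4-fold above it (5.20, adjusted p = 2.25e-08), and BMP4 was 3.19-fold above bFGF/BMP4 (1.68, adjusted p = 0.000105).

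Gjb6 went against its partner when bFGF was absent. No fragment of it was counted in the bFGF/EGF libraries, where 3 fragments per library would amount to a mean of 0.0668 FPKM. The bFGF/BMP4 libraries held 186, 105 and 78 fragments, or 4.33, 2.56 and 1.98 FPKM. The BMP4 libraries held 12, 16 and 3 fragments, or 0.276, 0.369 and 0.0680 FPKM. Gjb6 was therefore low in every group and highest in bFGF/BMP4-treated NSCs, with no overlap, although BMP4 library 3 did not exceed the 3 fragments. Set against 3 fragments per library, it was at least 44.3-fold higher with bFGF/BMP4 than in the control (limma adjusted p = 1.34e-05) and at least 3.56-fold higher with BMP4 (limma adjusted p = 0.00943). These bounds cover counting error only, and the call for BMP4 was lost with a pseudocount of 1 FPKM (log2 fold change 0.30, limma adjusted p = 0.226). BMP4 against bFGF/BMP4 was a 12.4-fold fall (log2 fold change -3.23, SE 0.43, limma adjusted p = 0.000524), the 65th largest among the genes tested.

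The connexin mix shifted accordingly. Gja1 was 6.88 to 10.7 times Gjb6 in the bFGF/BMP4 libraries. In the BMP4 libraries with 12 and 16 Gjb6 fragments the ratio was 245 and 224, and in the library with 3 fragments it was 1229, with an exact Poisson 95% interval for the Gjb6 count of 420 to 5958. The lower end of that interval lies above every bFGF/BMP4 library. Gjb2, which encodes connexin 26 and lies beside Gjb6 in the genome, was at most 0.277 FPKM in any library.

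Aldoc (chr11:78213619-78218889, plus strand), the brain aldolase of glycolysis, is also a common astrocyte marker. It read 42.1, 67.2 and 49.7 FPKM in the bFGF/EGF libraries, 254.7, 191.7 and 180.8 FPKM in the bFGF/BMP4 libraries and 477.5, 559.6 and 457.0 FPKM in the BMP4 libraries. This is the third gene that rose in 2 separate steps. The difference from the control was 3.95-fold (log2 fold change 1.99, SE 0.20, limma adjusted p = 2.73e-05) and 9.40-fold (3.25, adjusted p = 8.22e-07), and BMP4 was 2.38-fold above bFGF/BMP4 (1.26, adjusted p = 0.00134). Aldoa, the widespread aldolase, was not called in any comparison, at 230.8 ± 33.2, 245.7 ± 10.6 and 306.6 ± 51.7 FPKM (SD, n = 3) in bFGF/EGF-treated, bFGF/BMP4-treated and BMP4-treated NSCs. The ratio of Aldoc to Aldoa lay between 0.195 and 0.250 in the bFGF/EGF libraries, between 0.726 and 1.002 in the bFGF/BMP4 libraries and between 1.53 and 1.74 in the BMP4 libraries, where Aldoc was the more abundant of the pair. With GENCODE lengths the ratio was 1.29-fold higher, and the bFGF/BMP4 libraries lay on both sides of 1, at 0.938 to 1.29. The Aldoa level is uncertain, since the annotation holds near-identical copies of it between which reads could be split. Such splitting was not tested.

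Aldh1l1 (chr6:90463409-90577185, plus strand) encodes the cytosolic 10-formyltetrahydrofolate dehydrogenase, which removes one-carbon units from folate and is the most used pan-astrocyte marker. It was the one gene of the 9 with its highest level in bFGF/EGF-treated NSCs. It read 132.2, 161.6 and 112.3 FPKM in the bFGF/EGF libraries, 24.8, 23.6 and 24.3 FPKM in the bFGF/BMP4 libraries and 58.3, 64.7 and 51.3 FPKM in the BMP4 libraries. The groups did not overlap, and proliferating cells had the highest level. It fell 5.59-fold with bFGF/BMP4 (log2 fold change -2.46, SE 0.15, limma adjusted p = 9.31e-07) and 2.33-fold with BMP4 (-1.21, adjusted p = 6.65e-05), and BMP4 was 2.40-fold above bFGF/BMP4 (1.25, limma adjusted p = 0.000213). Aldh1l2, its mitochondrial paralog, was at 8.31 ± 1.82, 13.1 ± 0.699 and 19.2 ± 5.33 FPKM (SD, n = 3). Aldh1l1 was 11.2 to 25.3 times Aldh1l2 in the bFGF/EGF libraries, 1.77 to 2.02 times in the bFGF/BMP4 libraries and 2.28 to 4.97 times in the BMP4 libraries. These ratios were 1.89-fold lower with GENCODE lengths, and the pair was then about equal in the bFGF/BMP4 libraries, at 0.937 to 1.07.

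Counted together, 7 of the 9 genes were called higher and 1 lower with bFGF/BMP4 against bFGF/EGF, where 16.5% of all genes tested were called higher and 14.1% lower. With BMP4 the counts were again 7 and 1, against 21.3% and 15.4% of all genes. BMP4 against bFGF/BMP4 had 4 genes higher (Aqp4, Gja1, Aldoc and Aldh1l1) and 2 lower (Slc1a2 and Gjb6), against 8.41% and 5.14% of all genes. The median log2 fold change of the 9 genes was 3.52, 2.99 and 0.36 in these comparisons, and that of all genes tested was 0.06, 0.10 and 0. The first 2 comparisons share their control libraries, so that they are not independent of each other. All 3 comparisons called 6 of the 9 genes and 4.86% of all genes, and 3 of the 9 (Aqp4, Gja1 and Aldoc) were called as rising both from bFGF/EGF to bFGF/BMP4 and from there to BMP4, as were 2.03% of all genes. All 9 genes kept their bFGF/EGF libraries apart from those of each BMP4 group, as did 57.7% of all genes with bFGF/BMP4 and 60.4% with BMP4. In bulk RNA a change in the number of cells that use a gene and a change in its RNA per cell cannot be told apart.

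**Figure D2:**
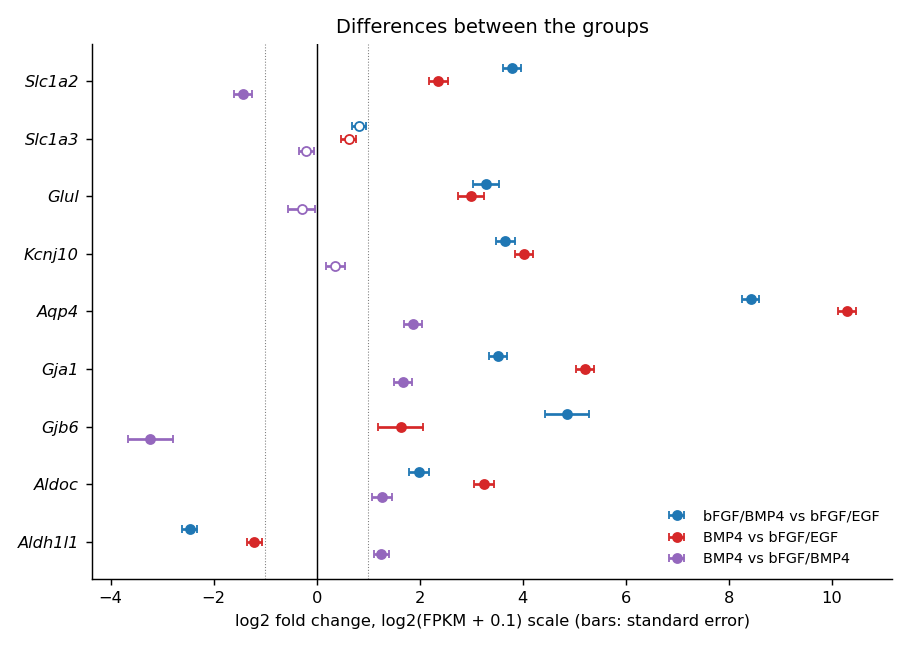
Log2 fold change of each gene in the 3 comparisons (points, log2(FPKM + 0.1) scale), with bars for the limma standard error, filled points for called genes and dotted lines at the 2-fold threshold. Slc1a3 has open points in all 3 comparisons, and Slc1a2 and Gjb6 lie left of 0 for BMP4 against bFGF/BMP4, opposite to Aqp4, Gja1 and Aldoc. The Gjb6 values against bFGF/EGF, where it was at 0, depend on the pseudocount.

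The summed level of the 9 genes was 311 to 375 FPKM in the bFGF/EGF libraries, 1235 to 1629 in the bFGF/BMP4 libraries and 2072 to 2180 in the BMP4 libraries. Aldh1l1 alone made up 40.0% ± 3.51 (SD, n = 3) of this sum in bFGF/EGF-treated NSCs, and Slc1a3 22.1% ± 4.46. With bFGF/BMP4 Glul led with 36.4% ± 7.31, and Aldh1l1 was down to 1.75% ± 0.225. With BMP4 Aqp4 led with 36.4% ± 4.002, Aldoc had 23.3% ± 2.30, and Slc1a2 had 3.07% ± 0.594 against 12.5% ± 0.495 with bFGF/BMP4. The same 3 genes led with GENCODE lengths, at 31.9%, 39.9% and 40.2%.

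**Figure D3:**
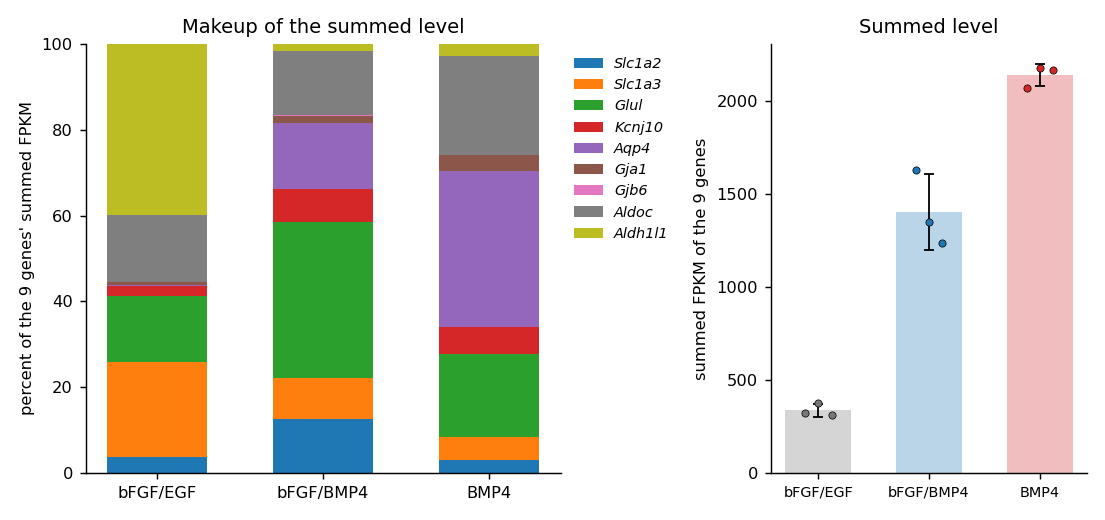
Left, mean percent of the summed FPKM of the 9 genes that each gene took up in a group, and right, the summed FPKM per library (points) with the group mean (bar) and SD (error bar, 3 libraries). Aldh1l1 takes 40.0% in bFGF/EGF, Glul 36.4% in bFGF/BMP4 and Aqp4 36.4% in BMP4, while the sum rises from 311 to 375 FPKM to 2072 to 2180 FPKM.

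**Figure D4:**
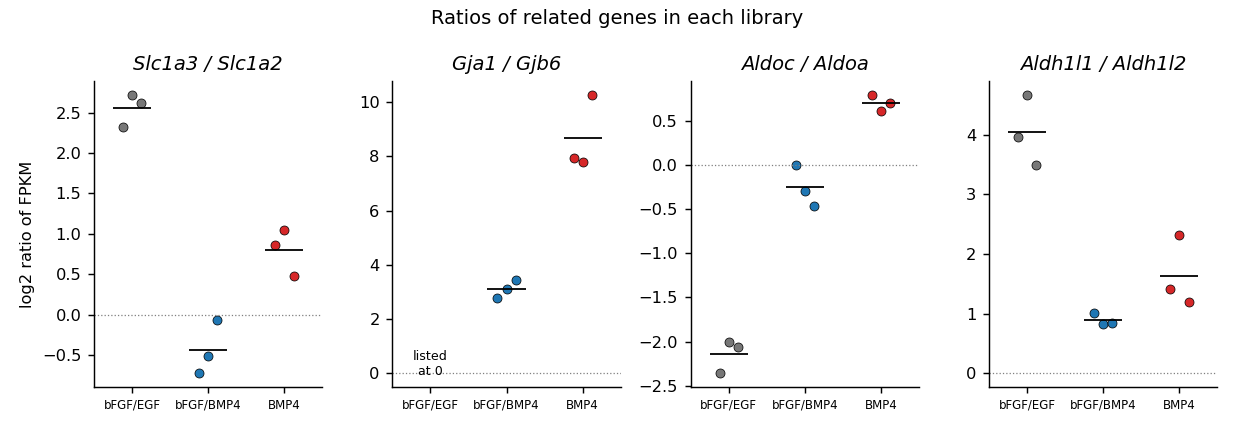
Log2 ratio of FPKM for 4 pairs of related genes, with a point for each library and a line at the group mean (each panel has its own axis). With the deposited FPKM the Slc1a3 to Slc1a2 ratio lies below 0 only in the bFGF/BMP4 libraries (other gene lengths shift a whole panel up or down), the Aldoc to Aldoa ratio rises group by group, and no Gja1 to Gjb6 ratio is drawn for bFGF/EGF because Gjb6 was listed at 0.

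The same functions were followed in 7 lists of 84 further genes, of which 79 were tested. With bFGF/BMP4 against bFGF/EGF 24 were called higher and 18 lower, with BMP4 31 and 18, and with BMP4 against bFGF/BMP4 20 and 11. The median log2 fold change of the 79 genes was 0.28, 0.48 and 0.10, as changes in both directions stood against each other. Called in either direction were 42, 49 and 31 of the 79, against 30.6%, 36.6% and 13.5% of all genes tested. Below, counts are given in the order bFGF/BMP4 against bFGF/EGF, BMP4 against bFGF/EGF and BMP4 against bFGF/BMP4. In that order 16.5%, 21.3% and 8.41% of all genes tested were called higher and 14.1%, 15.4% and 5.14% lower. Some of the counts for the lists and markers below lie near these shares.

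Genes of water transport and of the endfoot were mostly higher after BMP4. Of 13 tested, 9 were called higher in each BMP4 group than in the control and none lower by limma, with medians of 1.26 and 1.41. Between the BMP4 groups 9 of the 13 were not called, 3 were higher with BMP4 alone and 1 was lower, with a median of 0.23, so most did not take the second step of Aqp4. Gpr37l1, a glial receptor, was called only when bFGF was absent, at 15.7 ± 2.07, 9.85 ± 1.18 and 83.8 ± 9.16 FPKM (SD, n = 3, log2 fold change 3.08 for BMP4 against bFGF/BMP4, limma adjusted p = 1.4e-06). Aqp1, another water channel, had the pattern of Gjb6 at a low level, with 0.0766, 1.84 and 0.265 FPKM on average and 1 to 5 fragments per library in the control.

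Ion handling genes moved in both directions. Of 11 tested, 4, 6 and 5 were called higher and 2, 1 and 3 lower. Atp1b2, a glial beta subunit of the sodium pump, was high in both BMP4 groups, at 578.4 ± 74.4 and 505.5 ± 70.6 FPKM against 39.8 ± 8.10 in the control (SD, n = 3, log2 fold change 3.87 and 3.67, limma adjusted p = 2.47e-07 and 2.54e-07). Kcnk2, a two-pore potassium channel, fell with bFGF/BMP4 from 12.5 ± 0.329 to 2.55 ± 0.303 FPKM and stood at 23.7 ± 7.24 FPKM with BMP4.

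Glutamate cycle genes did not move as a group, with 2, 3 and 2 of 13 called higher and 5, 4 and 1 lower. Glud1, the mitochondrial glutamate dehydrogenase, rose in both BMP4 groups with Glul, from 74.4 ± 7.40 to 663.4 ± 13.6 and 632.8 ± 57.8 FPKM (log2 fold change 3.16 and 3.09, limma adjusted p = 1.69e-07 and 1.36e-07). Slc38a3, a glutamine exporter of astrocytes, rose from 13.1 ± 1.15 to 160.0 ± 22.5 and 83.7 ± 15.0 FPKM. Pcx, the pyruvate carboxylase that refills the glutamate pool, was called against both groups only in BMP4-treated NSCs, at 144.2 ± 34.1 FPKM against 19.7 ± 3.46 and 34.3 ± 4.02. Slc38a1, a neutral amino acid transporter, was lowest with bFGF/BMP4, at 8.05 ± 1.12 FPKM. The third glutamate transporter, Slc1a1, was low, between 0.686 and 2.82 FPKM in every library. It averaged 1.12, 2.31 and 0.775 FPKM and, like Slc1a2, was called lower with BMP4 than with bFGF/BMP4 (log2 fold change -1.45, limma adjusted p = 0.00125).

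Of the genes that clear other transmitters, 2, 1 and 2 of 9 were called higher and 2, 3 and 3 lower. Abat, the GABA transaminase, rose from 6.31 ± 0.577 to 108.9 ± 5.68 and 88.5 ± 15.4 FPKM (log2 fold change 4.09 and 3.78, limma adjusted p = 4.49e-08 and 3.98e-08). Slc6a11, the astrocyte GABA transporter GAT-3, fell at each step, from 48.7 ± 9.07 to 18.3 ± 1.95 and 5.57 ± 0.125 FPKM. Slc6a9, the glycine transporter GlyT1, was highest with bFGF/BMP4, at 15.6 ± 1.95 FPKM against 3.89 ± 0.196 in the control and 4.23 ± 0.951 with BMP4.

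Other gap junction genes were called higher 3, 3 and 1 times of 10 and lower 3, 4 and 2 times. Gja3, known as a connexin of the lens, had 0 fragments in the bFGF/EGF libraries and was at 63.5 ± 24.5 FPKM with bFGF/BMP4 and 16.7 ± 4.39 FPKM with BMP4 (SD, n = 3), at least 1053-fold and at least 277-fold higher against 3 fragments per library (limma adjusted p = 3.63e-08 and 8.57e-08). Its mean was above that of Gja1 in bFGF/BMP4-treated NSCs and below it in BMP4-treated NSCs, also with GENCODE lengths. Gjc3, an oligodendrocyte lineage connexin, was 2.86 ± 0.439, 3.93 ± 1.01 and 0.481 ± 0.294 FPKM. Gjd2, the neuronal connexin 36, averaged 0.978 FPKM in the control and had at most 3 fragments in each BMP4 and bFGF/BMP4 library.

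Energy supply genes were called higher 4, 7 and 6 times of 13 and never lower by limma, with medians of 0.70, 2.21 and 0.82 (0.41 and 2.36 for the first 2 with 1 gene at its bound). Slc16a1, the lactate transporter MCT1, was called higher only without bFGF, with 18.8 ± 1.08, 19.7 ± 2.91 and 453.6 ± 108 FPKM (log2 fold change 4.50 for BMP4 against bFGF/BMP4, limma adjusted p = 1.18e-06). Pygb, the brain glycogen phosphorylase, rose in the steps of Aldoc, from 12.6 ± 1.98 to 182.4 ± 29.5 and 378.3 ± 13.7 FPKM. Pdk4, which restrains pyruvate oxidation, did so at a lower level, with 0.211 ± 0.0831, 2.28 ± 0.440 and 9.89 ± 2.15 FPKM.

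Folate and one-carbon genes, the pathway of Aldh1l1, were mostly lower after BMP4. Of 10 tested, 6 were called lower in each BMP4 group than in the control, and 0 and 2 higher, with medians of -1.23 and -1.94. Mthfd1l, which releases formate in mitochondria, fell from 23.7 ± 4.06 to 2.20 ± 0.649 and 1.60 ± 0.194 FPKM (log2 fold change -3.40 and -3.80, limma adjusted p = 2.19e-06 and 7.64e-07), and Shmt1, a serine hydroxymethyltransferase, from 16.8 ± 2.88 to 2.52 ± 0.602 and 1.66 ± 0.282 FPKM. Mthfd2, a mitochondrial enzyme of dividing cells, fell at each step, from 23.5 ± 0.602 to 9.87 ± 0.344 and 3.47 ± 0.961 FPKM. Only Mtr, the methionine synthase, and Aldh1l2 were called higher with BMP4 than in the control. Several enzymes of this list feed the synthesis of nucleotides.

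**Figure D5:**
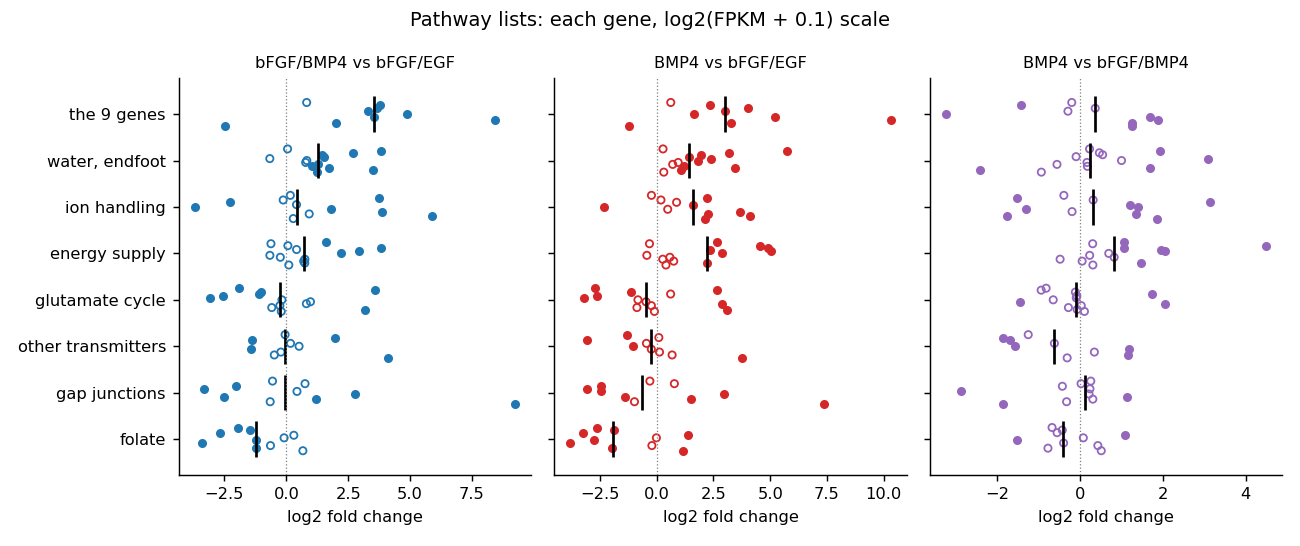
Log2 fold change of each gene (points, filled where called) of the 9 genes and of the 7 lists in the 3 comparisons, on the log2(FPKM + 0.1) scale, with black lines at the list medians. The 9 genes have the highest medians against bFGF/EGF (3.52 and 2.99), the folate genes the lowest (-1.23 and -1.94), and Gja3 is the rightmost gap junction gene, drawn at a fitted value that depends on the pseudocount because its bFGF/EGF libraries were at 0.

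Markers outside the 9 genes were used to check what these cells were. Sox2, a transcription factor of NSCs, averaged 167 FPKM in bFGF/EGF-treated and 137 FPKM in both BMP4 groups, while Nes, the NSC intermediate filament Nestin, averaged 151, 3.55 and 15.8 FPKM in the order of the groups. The summed NSC markers were 997 to 1200 FPKM in bFGF/EGF, 436 to 471 in bFGF/BMP4 and 1040 to 1298 in BMP4 libraries, led by Vim. The 10 NSC markers moved in both directions, with 3, 4 and 4 called higher and 4, 3 and 1 lower. Of 20 other astrocyte markers, 14, 12 and 6 were called higher and 3, 2 and 5 lower, and their sum was 908 to 973, 2243 to 2737 and 4420 to 5384 FPKM. Gfap, the astrocyte intermediate filament, was 0.0926 ± 0.0379, 19.4 ± 2.40 and 2566 ± 435 FPKM, which makes it a large part of the sum with BMP4. For BMP4 against bFGF/BMP4 the median log2 fold change of the 20 markers was -0.31, with positive values for only 7 of them. S100b was at 0.624 ± 0.276, 55.1 ± 5.43 and 40.1 ± 8.42 FPKM, and Slc14a1, a urea transporter, at 0, 0.838 ± 0.249 and 20.9 ± 2.12 FPKM. Several of these genes also mark quiescent NSCs, so they do not separate the 2 cell types.

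Markers of other cells also moved between the groups. The 10 markers of OPCs (oligodendrocyte precursors) and oligodendrocytes summed to 1564 to 2264, 1320 to 1802 and 243 to 444 FPKM, led by Olig1 and Olig2, with Sox10 at 0 in both BMP4 groups. The 8 ependymal markers summed to 8.56 to 13.3, 11.1 to 12.3 and 63.3 to 76.2 FPKM, with Tmem212 at 0 throughout, and all 7 tested were called higher with BMP4 than with bFGF/BMP4. The 10 neuronal markers summed to 82.2 to 98.2, 56.5 to 62.7 and 160 to 235 FPKM. Tubb3, a tubulin, made up 145 FPKM of the last sum on average, and of the 9 tested 1, 3 and 5 were called higher and 3, 2 and 1 lower, with Syt1, a synaptic vesicle protein, among those lower with BMP4 than in the control. Their part in the differences of the 9 genes was not tested. Microglial markers summed to 7.32 to 7.98, 8.38 to 11.1 and 9.28 to 12.2 FPKM, with C1qa at 0. Vascular markers summed to 0.198 to 0.356, 1.69 to 2.56 and 3.86 to 5.50 FPKM, with Cldn5 at 0. Of 3 tested in each list, 1, 1 and 1 microglial and 2, 3 and 2 vascular markers were called higher. Tmem119, Rgs5 and Pdgfrb averaged 0, 0.043 and 0.014 FPKM in the control and passed the filter of 0.1 FPKM only through the BMP4 groups. The filter thus favoured their calls as higher, which are no evidence about these lists. Called lower were 1, 1 and 0 microglial markers and no vascular ones.

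For each of the 9 genes, the genes with the most similar profile were found among 7879 other genes with a mean of at least 5 FPKM, by the root mean square difference of log2(FPKM + 0.1) over the 9 libraries after each gene was centred on its mean. The closest match was Entrep1 for Aldoc, with a difference of 0.08, at 3.36, 13.7 and 31.0 FPKM. Slc1a3 was matched by Hps5 (0.11) and Aldh1l1 by Stmn3 (0.13), a stathmin with 136.8, 26.5 and 66.1 FPKM. Kcnj10 was matched by Slc6a8 (0.16), the creatine transporter, and Glul by Gem (0.17). Slc1a2 was nearest to Grin3a (0.20), an NMDA receptor subunit, and then to Slc4a4 (0.23), the sodium bicarbonate cotransporter of astrocytes, at 7.83, 106.5 and 37.1 FPKM. Gja1 was nearest to Pygb (0.31), Aqp4 to Fmod (0.33) and Gjb6 to Tmem204 (0.36). Within the 9 genes the most similar pairs were Slc1a2 with Glul (0.58) and Glul with Kcnj10 (0.59), so that each of the 9 had a closer match among the many genes outside the set than among the 8 inside it. The differences are a description, since all libraries of a group share its medium and day.

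Exons on the opposite strand belong to Gm13872 at Slc1a2, Teddm2 at Glul and Gm15756 at Aldh1l1, whose highest group means were 0.108, 0.303 and 0.618 FPKM. Such exons also belong to Gm31340 at Slc1a3, Gm68148 at Gja1, Gm32912 at Gjb6 and Gm57153 at Kcnj10. These 4 genes have no values in the data, so their levels are unknown. Gjb6 itself had at most 186 fragments in a library. The strand setting of the counting is not given in the sources used here.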

How the data were processed

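Mouse NSCs gave 9 RNA libraries, 3 per group, grouped by the treatment and time labels. Per the labels' processing notes and the paper, the authors used fastp 0.19.7, HISAT2 2.0.5 and featureCounts 1.5.0-p3 with mm39 and deposited FPKM values, one column per library. The library scaling, the annotation release and the strand setting are not given in the sources used here. For 30860 of 30860 genes above 0 the FPKM values were whole fragment numbers within 0.02, in their smallest form. These numbers gave the depth and a limma-voom alternative. Of 55414 Ensembl identifiers 54749 were named from GENCODE vM39, whose GRCm39 coordinates are given.

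R 4.3.3 with limma 3.58.1 (trend, 9 libraries) tested log2(FPKM + 0.1) of all genes whose FPKM averaged 0.1 or more, with Benjamini-Hochberg adjustment over 20207 genes. The deposited file analysed here holds FPKM, so the test was made on the log2 scale. The paper states that raw counts are given in its supplement, and those counts were not used here. Summaries were made in Python 3.11.15 (numpy 2.4.6, pandas 2.3.3) and plots in matplotlib 3.10.9. Named list genes were the 2 called with the largest change per list in bFGF/BMP4 against bFGF/EGF and in BMP4 against bFGF/BMP4, and fixed paralogs. Some genes that this rule names are not reported here. The 9 genes, the lists and the rules were chosen with earlier results of these data known. Alternatives were other pseudocounts, filters, scalings and thresholds, a fit of only the groups compared, a replicate block and each library left out. GENCODE exon lengths for the ratios were added after the data were seen.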

Additional observations from a re-analysis of the deposited data

How the results depend on the processing

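Direction and side of the threshold were the same for the 9 genes in 512 of 513 fold changes recomputed under the alternatives, and no fold change was reversed. The exception was Gjb6 for BMP4 against bFGF/EGF, with a log2 fold change of 0.30 at a pseudocount of 1 and 4.35 at 0.01. This follows from its 0 fragments in the control. The number of the 9 genes called higher with BMP4 against bFGF/EGF ranged from 6 to 8. The 79 pathway genes called in either direction ranged from 34 to 56, 42 to 60 and 25 to 41 (main 42, 49 and 31) in the 3 comparisons, and from 40 to 43, 48 to 50 and 28 to 32 with each library left out. Leaving out a library kept the counts of the 9 genes at 7 and 1, 7 and 1, and 4 and 2. The replicate block gave those same counts. Same-numbered libraries correlated at -0.0839 to 0.125 in their deviations from the group means (9 pairs). Differently numbered ones correlated at -0.154 to 0.0814 (18 pairs). These ranges overlap, and the labels do not say whether same-numbered libraries share an isolation, so pairing cannot be settled here. Over all genes, a pseudocount of 1 called 1723 higher and 1821 lower for bFGF/BMP4, 2326 and 2038 for BMP4 against bFGF/EGF, and 890 and 559 between the BMP4 groups (main 3327 and 2847, 4297 and 3103, 1699 and 1039). The adjusted p alone called 5058 and 4761, 5991 and 5105, and 2474 and 1797. Quantile normalization lowered the median of all genes for BMP4 against bFGF/EGF by 0.13, from 0.10 to -0.03. GENCODE exon lengths, added after the data were seen, moved the mean log2 ratios of Slc1a3 to Slc1a2 to 1.87, -1.11 and 0.12 in bFGF/EGF, bFGF/BMP4 and BMP4, those of Aldoc to Aldoa to -1.77, 0.12 (reversed from -0.25) and 1.08, and those of Aldh1l1 to Aldh1l2 to 3.12, -0.023 (reversed from 0.89) and 0.72, by construction with the same shift in every library. Depth limits Gjb6, Gja3, Gjb2, Gjd2, Aqp1, Gfap, S100b, Slc14a1 and Pdk4, which had at most 22 fragments per library in at least 1 group.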
